A study of Rattus norvegicus with 8 samples.

Results

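The melanin-making genes of melanocytes were followed in the skin of an albino rat stock, with and without streptozotocin diabetes. The set holds 6 genes, Tyr, Tyrp1, Dct, Mlana, Pmel and Mitf, and a gene was measured where a noncontrol probe's RefSeq accession mapped to it. By that rule Tyr, Tyrp1 and Mlana were measured, 3 of 6, each by 1 probe printed as 1 spot, among 24684 noncontrol probes. No probe was matched to Dct, Pmel or Mitf, which are therefore named only. The 3 measured genes were all well above background in all 8 samples, and none of their spots was saturated or marked as an outlier. All 3 passed the filter on dim probes, together with 21527 probes in all, and 12615 tested genes had a symbol.

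Melanin is built inside melanosomes, organelles related to lysosomes, and passed from melanocytes to the keratinocytes of the epidermis and the growing hair. Tyrosinase (Tyr), a copper enzyme, carries out the first and rate-limiting step, and Dct and Tyrp1 act on later intermediates of the brown-black pigment. Pmel forms the fibrils on which melanin is laid down, Mlana (MART-1) is a melanosomal membrane protein that takes part in Pmel maturation, and Mitf is the transcription factor that switches these genes on, as worked out in mouse and human cells. Sprague-Dawley rats are albino through loss of tyrosinase activity. In albino rodents melanocytes are present but make no pigment, so transcripts of these genes can still be measured.

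Male Sprague-Dawley rats were given 60 mg/kg streptozotocin (STZ, a toxin of pancreatic beta cells) intraperitoneally at 4 weeks of age, or sodium citrate solution as sham treatment, and were kept for 4 weeks. Full-thickness skin was taken at 8 weeks, so that hair follicles, dermis and epidermis were measured together. The labels name 4 STZ and 4 sham samples and give no genetic alteration for either group. They also mention a skin wound after the 4 weeks without saying whether the sampled skin was wounded. Total RNA carrying a Cy3 label was read on Agilent arrays of the 1-colour type.

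The 8 samples came from 4 arrays, each scanned 2 times: replicates 1 and 3 of a group shared an array, and so did replicates 2 and 4. Spot patterns within these 4 pairs correlated at 0.974 to 0.985 over 5548 spots, against 0.353 to 0.521 for other pairs within a group. All 4 arrays lay on 1 slide. The scans of an array were averaged, which left 2 STZ and 2 sham arrays, so that p-values measured the spread between 2 arrays a group. The labels do not say which rat each array came from. The 75th percentile of intensity was 606 and 624 in STZ replicates 2 and 4, against 1481 and 1496 in STZ replicates 1 and 3 and 1138 to 1336 in the sham samples. Between 20266 and 22888 probes per sample were well above background. In this whole tissue, fewer cells of a type and less RNA per cell cannot be told apart.

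The stretches upstream of the transcript starts show what pigment genes have in common in their DNA. The 250 bases before the start of Tyrp1 (chr5:100326875-100327124, plus strand), Tyr (chr1:150622858-150623107, minus strand), Mlana (chr1:236882825-236883074, plus strand) and Dct (chr15:101508030-101508279, minus strand) are given 5′ to 3′ in the direction of the gene, from RefSeq on GRCr8. Capitals mark CATGTG, one form of the E-box recognised by Mitf, or CACATG, the same letters on the other strand.
Tyrp1: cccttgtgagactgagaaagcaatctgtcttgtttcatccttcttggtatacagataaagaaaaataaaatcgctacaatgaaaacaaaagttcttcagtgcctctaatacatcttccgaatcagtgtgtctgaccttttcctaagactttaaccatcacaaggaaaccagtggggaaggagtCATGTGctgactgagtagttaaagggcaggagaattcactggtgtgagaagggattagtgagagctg
Tyr: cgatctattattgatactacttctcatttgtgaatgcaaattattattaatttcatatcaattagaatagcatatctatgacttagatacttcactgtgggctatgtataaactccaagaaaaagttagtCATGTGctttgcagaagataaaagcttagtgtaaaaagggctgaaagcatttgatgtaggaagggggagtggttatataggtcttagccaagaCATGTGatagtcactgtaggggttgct
Mlana: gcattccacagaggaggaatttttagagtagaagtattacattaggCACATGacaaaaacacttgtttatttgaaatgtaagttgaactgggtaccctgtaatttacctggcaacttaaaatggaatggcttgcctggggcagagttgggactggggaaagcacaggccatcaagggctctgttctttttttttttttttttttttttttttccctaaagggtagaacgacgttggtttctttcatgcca
Dct: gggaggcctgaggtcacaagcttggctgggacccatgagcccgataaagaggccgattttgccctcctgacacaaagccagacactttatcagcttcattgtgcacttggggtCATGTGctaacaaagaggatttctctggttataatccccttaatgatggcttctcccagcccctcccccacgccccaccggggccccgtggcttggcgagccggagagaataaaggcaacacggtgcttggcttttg

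CATGTG lay once upstream of Tyrp1, at bases -67 to -62 counted back from the transcript start. Tyr held it at bases -120 to -115 and -27 to -22, and Dct at -137 to -132. Mlana held it on the other strand only, at -204 to -199. Neither strand of the Pmel or Mitf windows contained these letters. A single window per gene was searched, although Mitf has 11 RefSeq transcripts and Pmel 3. Other starts of these genes, where they differ, were not searched. The longer TCATGTGCT, which contains CATGTG and is known as the M-box of pigment genes, lay at -68 to -60 in Tyrp1, -121 to -113 in Tyr and -138 to -130 in Dct. Among 33469 windows of the same length, 4045 (12.1%) held CATGTG on either strand, and 57 (0.17%) held TCATGTGCT. The palindrome CACGTG, the other E-box of this factor family, was in 1872 windows (5.59%) and in none of the 6 pigment gene windows. Of the 6 pigment genes, the 2 measured ones with the M-box, Tyrp1 and Tyr, were both lower on STZ array 1-3 than on STZ array 2-4. Against the sham arrays they differed: Tyrp1 was lower on both STZ arrays, whereas the groups overlapped for Tyr.

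Tyrp1, which stabilises tyrosinase and acts late in pigment synthesis, was the pigment gene with the widest difference. Processed intensities were 18.3 and 16.6 for STZ replicates 1 and 3, with 97.2 and 102 for STZ replicates 2 and 4, against 400.3, 414, 553 and 564 in sham replicates 1, 3, 2 and 4. All 4 STZ readings thus lay below all 4 sham readings, and the pair of STZ arrays also stood apart from each other. The dimmest array was near the limit of measurement, with median spot intensities of 63 and 64 over local backgrounds of 19 and 25 in STZ replicates 1 and 3, although the scanner software still marked the spot as well above background.

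Relative to each array's 75th percentile, Tyrp1 had log2 values of -6.41 on STZ array 1-3 and -2.62 on STZ array 2-4, against -1.51 on sham array 1-3 and -1.24 on sham array 2-4. The STZ mean was -4.52 ± 2.68 and the sham mean -1.37 ± 0.19 (SD, n = 2 arrays each). All changes below are STZ minus sham on the log2 scale, relative to the median change of all tested probes, which was itself 0.23, while each p tests the change before that median is taken off. On this scale Tyrp1 was lower in STZ skin by 10.4-fold, a log2 change of -3.38 with an SE of 1.27. Limma's moderated test, two-sided, gave an unadjusted p of 0.0559 and a Benjamini-Hochberg adjusted p of 0.475, so the difference did not pass. The 2 STZ arrays gave unlike sizes: without STZ array 1-3 the change was -1.64 (adjusted p = 0.163 by limma), and without STZ array 2-4 it was -5.07 (adjusted p = 0.138 by limma).

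Tyr, the gene whose product is inactive in albino animals, was dim but measurable on every array. Processed intensities were 83.5 and 82.9 for STZ replicates 1 and 3, with 108 and 110 for STZ replicates 2 and 4, against 65.7, 68.0, 79.7 and 86.4 in sham replicates 1, 3, 2 and 4. STZ array 2-4 combined the highest Tyr reading with the lowest overall brightness of the 4 arrays. Log2 values relative to the 75th percentile were -4.16 and -2.49 on STZ arrays 1-3 and 2-4, against -4.11 and -3.99 on sham arrays 1-3 and 2-4. STZ array 1-3 therefore lay beside the sham arrays and STZ array 2-4 above all others, and the groups overlapped. The means were -3.33 ± 1.18 for STZ and -4.05 ± 0.09 for sham (SD, n = 2 arrays each). The log2 change was 0.50 with an SE of 0.67 (adjusted p = 0.702 by limma), and its sign turned without STZ array 2-4, to -0.14, while without STZ array 1-3 it was 1.18.

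Mlana, the melanosomal antigen MART-1, ran in the opposite order on the STZ arrays. Processed intensities were 2131 and 2145 for STZ replicates 1 and 3, with 342 and 355 for STZ replicates 2 and 4, against 646, 675, 509.7 and 539 in sham replicates 1, 3, 2 and 4. STZ array 1-3, which was lowest for Tyrp1, was thus the highest for Mlana. Log2 values relative to the 75th percentile were 0.52 and -0.82 on STZ arrays 1-3 and 2-4, against -0.81 and -1.33 on sham arrays 1-3 and 2-4. On this scale STZ array 2-4 lay between the sham arrays, beside sham array 1-3, and the groups overlapped. The means were -0.15 ± 0.95 for STZ and -1.07 ± 0.37 for sham (SD, n = 2 arrays each). The log2 change was 0.69 with an SE of 0.61 (adjusted p = 0.621 by limma). Without STZ array 1-3 it was -0.13, and without STZ array 2-4 it was 1.56.

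**Figure D1:**
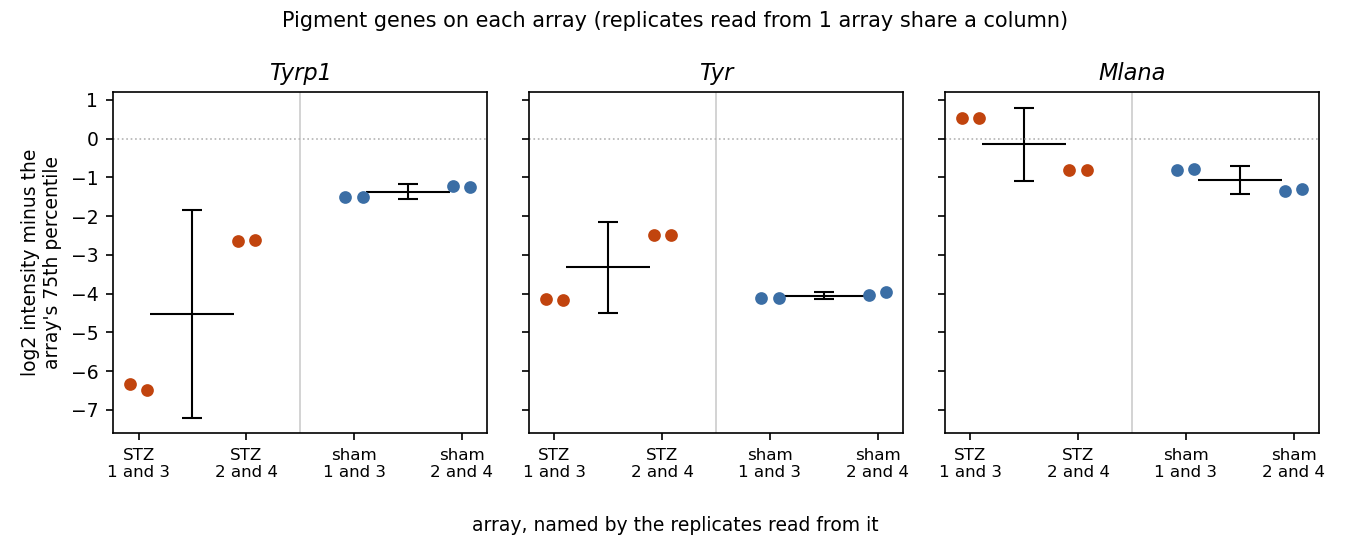
Log2 intensity of Tyrp1, Tyr and Mlana minus the 75th percentile of the array (y axis) on the 2 STZ arrays (red) and the 2 sham arrays (blue), with 1 point per scan and bars for the mean and SD over the 2 arrays of a group. Tyrp1 is lower on both STZ arrays, at -6.41 and -2.62, than on the sham arrays, at -1.51 and -1.24, while the groups overlap for Tyr and Mlana.

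None of the 3 measured pigment genes passed the test. No probe of the 21527 tested did either, 0 or 0% at an adjusted p under 0.05, and the smallest adjusted p by limma was 0.0761. At an unadjusted p under 0.05, also 0 of 3 pigment genes passed, beside 761 probes (3.54%) lower and 1575 probes (7.32%) higher in STZ skin. Arrays of both groups did not overlap for 1 of the 3 genes, Tyrp1, which was lower. Of all tested probes, 3840 (17.8%) were lower and 5776 (26.8%) higher without overlap, so 1 lower gene in 3 is no result about the set. The median change of the 3 genes was 0.50, with 2 above and 1 below the median of all tested probes, which is 0 by construction. That median was below 0 when either STZ array was left out, at -0.13 without STZ array 1-3 and -0.14 without STZ array 2-4. An exact permutation test of 2 arrays against 2 could not go below a p of 0.333.

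The pigment genes also differed from each other in the gap between the 2 STZ arrays. Relative to the median probe, STZ array 1-3 was below STZ array 2-4 by 3.45 for Tyrp1 on the log2 scale, a gap as low as in only 0.483% of tested probes. For Tyr the same gap was -1.33, which 15.4% of probes matched or went below. For Mlana it was 1.68 the other way, matched or exceeded by 4.51% of probes. Between the 2 sham arrays the gaps were small, at -0.30 for Tyrp1, -0.15 for Tyr and 0.49 for Mlana. The 2 scans of any array gave nearly the same values, so these gaps lay between arrays and not between readings of an array.

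**Figure D2:**
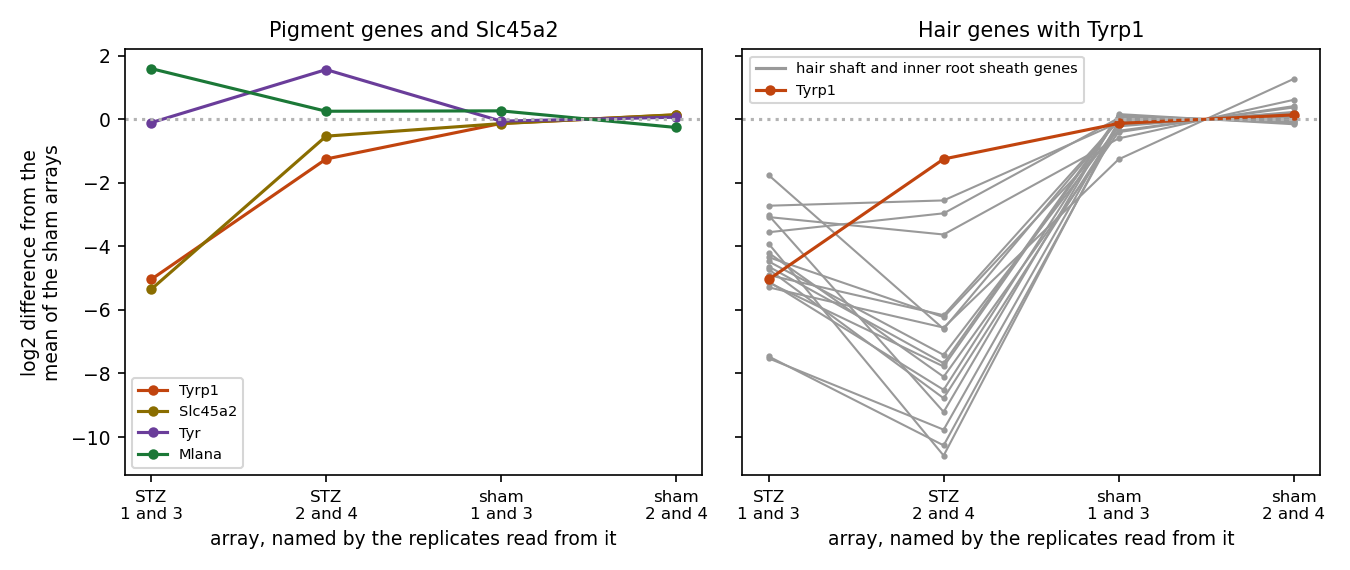
Log2 difference of each array from the mean of the sham arrays (y axis) for Tyrp1, Slc45a2, Tyr and Mlana (left) and for Tyrp1 among 17 hair shaft and inner root sheath genes (right, grey), with STZ arrays left of sham arrays. Tyrp1 and Slc45a2 are lowest on STZ array 1-3, whereas 15 of the 17 hair genes are lower on STZ array 2-4. Slc45a2 was not well above background on STZ array 1-3, so its point there is an upper bound.

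The likeness of other genes to this pattern was measured as the root mean square (RMS) difference of the 4 array values, each gene centred on its own mean, over 12614 genes. The choice to match each pigment gene singly was made after its values were seen. The genes nearest to Tyrp1 were Car1 (carbonic anhydrase 1, RMS 0.283), Slc45a2 (0.378), Rnf182 (a ubiquitin ligase, 0.456), Pck1 (the cytosolic enzyme of gluconeogenesis and glyceroneogenesis, 0.476) and Mrap (the accessory protein of the ACTH receptor, 0.481). The measures of Car1 and Slc45a2 used deposited values of spots not well above background, on both STZ arrays for Car1 and on STZ array 1-3 for Slc45a2, so they give neither gene an exact distance or rank. The 5 genes nearest to Tyr were Or51f1g, P2ry10b, Sting1, Lrrc3 and Phkb, with RMS differences of 0.0229 to 0.0378. The 5 nearest to Mlana were Ces2g, Ocm, Vasp, Acaa1b and Camk2d, at 0.0502 to 0.138. The mean profile of the 3 pigment genes, over 12612 genes, was nearest to Tmprss6, Senp8, Hist1h2an, Tekt1 and Rasl11b, at 0.0504 to 0.0878. With 4 arrays such a measure describes these arrays only.

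Among 17 further melanosome proteins, 12 had a tested probe, of which 5 were above and 7 below the median of all probes, with a median change of -0.04. None passed at an unadjusted p under 0.05. The median was -0.40 without STZ array 1-3, 0.09 without STZ array 2-4, -0.24 without sham array 1-3 and 0.0064 without sham array 2-4. Slc45a2, a melanosomal transporter whose loss causes a form of albinism in humans and mice, had log2 values of -9.28 and -4.46 on STZ arrays 1-3 and 2-4, against -4.06 and -3.79 on sham arrays 1-3 and 2-4. On STZ array 1-3 its probe was not well above background, so that its level there is only an upper bound. With the deposited value of that spot, its change was -3.17 with an SE of 1.58 (adjusted p = 0.575 by limma). Without STZ array 1-3, the change of Slc45a2 was -0.92. After normexp background correction it was -0.68 with the 75th percentile and -0.93 with quantile normalization.

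The other melanosome proteins had smaller differences. Atp7a, the pump that delivers copper to tyrosinase, had a change of -1.47 (unadjusted p = 0.0797 by limma). Its log2 values were 0.94 and -0.27 on STZ arrays 1-3 and 2-4, against 1.48 and 1.67 on the sham arrays. Mlph, which links melanosomes to the myosin motor, had -1.19, and its partners Myo5a and Rab27a had -0.59 and 0.79. Gpr143, the melanosomal receptor altered in human ocular albinism, had 0.02, and the 2 probes of the channel gene Trpm1 had -0.03 and -0.90. The cystine transporter gene Slc7a11 had -0.05. Rab38 and Rab32, the small GTPases that bring enzymes to melanosomes, had -0.58 and 0.40. The vesicle proteins Cd63 and Gpnmb, which are abundant in other cells too, had 0.47 and 0.54.

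The lineage factors and receptors of melanocytes had 9 tested genes of 13, with 2 above and 7 below the median of all probes and a median change of -0.64. At an unadjusted p under 0.05, Lef1 was lower (unadjusted p = 0.00564, adjusted p = 0.205 by limma) and Pou3f2 higher (unadjusted p = 0.0333, adjusted p = 0.406 by limma), so neither passed after adjustment. Lef1, a transcription factor of Wnt signalling that also acts in the hair follicle, had log2 values of 0.07 and -1.19 on STZ arrays 1-3 and 2-4, against 2.14 and 2.06 on the sham arrays, a change of -2.89. Pou3f2, known from melanoma cells, was dim. It had log2 values of -5.21 and -4.56 on STZ arrays 1-3 and 2-4, against -6.12 and -6.38 on the sham arrays. Its change was 1.14, which became 0.53 with normexp and the 75th percentile and 0.10 with normexp and quantile normalization. With quantile normalization alone it was 0.40 (unadjusted p = 0.439 by limma). Its unadjusted p was also over 0.05 without STZ array 2-4 and without either sham array. The receptor genes Kit and Ednrb, which melanocytes need to survive and migrate, had changes of -1.22 and -0.96, and Sox10, the neural crest factor upstream of Mitf, had -0.60. Tfap2a had -1.22, Tfap2b -0.64, Zeb2 0.66 and Irf4, a pigmentation factor also found in immune cells, -0.25. Kit is also a mast cell gene and Sox10 also a Schwann cell gene.

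Of 10 genes for ligands and secreted factors acting on melanocytes, 7 were tested, with 2 above and 5 below the median of all probes and a median change of -0.35. The median was -0.12 with quantile normalization, -0.72 with normexp and the 75th percentile, and -0.17 without STZ array 1-3. Bmp4, a morphogen of the hair follicle, had log2 values of -0.85 and -2.13 on STZ arrays 1-3 and 2-4, against 2.10 and 1.52 on the sham arrays. The change in Bmp4 was -3.53 (unadjusted p = 0.00287, adjusted p = 0.172 by limma). Hgf, a growth factor for melanocytes and many epithelia, had -2.92 and -2.86 on STZ arrays 1-3 and 2-4, against -5.52 and -4.84 on the sham arrays. Its change was 2.06 (unadjusted p = 0.00441, adjusted p = 0.2002 by limma), and it was 0.84 after normexp correction with quantile normalization. Fgf2, another melanocyte growth factor, had -1.46 (unadjusted p = 0.0336 by limma), with its 2 probes alike, and its unadjusted p was over 0.05 without STZ array 2-4 and without either sham array. The Kit ligand gene Kitlg had -0.35 and -0.53 on its 2 probes, Edn3 and Edn1, both endothelins, 0.76 and -1.11, and Pomc, the precursor of the melanocortins, -0.33. Dkk1, a Wnt inhibitor, was well above background on 1 array only, STZ array 2-4, and was not tested. Its log2 values were -9.09 and -5.47 on STZ arrays 1-3 and 2-4, against -9.17 and -9.11 on the sham arrays, and the bound of at least 1.17-fold brighter in STZ skin rests on that 1 array.

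Relatives of Mitf in the MiT family were also measured, 2 of the 3 sought. Tfec, a factor mostly of macrophages, had log2 values of -0.48 and -0.50 on STZ arrays 1-3 and 2-4, against -2.66 and -3.40 on the sham arrays. The change of Tfec was 2.31 (unadjusted p = 0.00304, adjusted p = 0.172 by limma). Tfeb, a regulator of lysosome genes, had a change of 0.06. Of 8 genes of macrophages and osteoclast-type cells, which also use MiT factors, 7 were tested. All 7 were above the median of all probes, with a median change of 1.24. At an unadjusted p under 0.05, 4 of the 7 were higher, beside 7.32% of all tested probes. The 4 were Cd68 at 2.53, Adgre1 at 1.79, Atp6v0d2 at 1.83 and Ctsk at 1.24. Without sham array 2-4 the count was 2 and the median 0.86. As log2 relative to the 75th percentile, the summed level of the 7 genes was 7.76 and 8.13 on STZ arrays 1-3 and 2-4. It was 6.92 and 6.97 on sham arrays 1-3 and 2-4. Most of that sum was Gpnmb, at 7.16 and 7.36 on those STZ arrays against 6.33 and 6.65 on those sham arrays. Gpnmb is also among the melanosome proteins above. The part of macrophages and osteoclast-type cells in the level of Tfec was not tested.

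The genes that build melanosomes and other lysosome-related organelles in many cell types had small differences. Of 16, 14 were tested, with 5 above and 9 below the median of all probes and none at an unadjusted p under 0.05. Their changes ran from -0.88 to 0.38 with a median of -0.30. The median was 0.0030 with quantile normalization, where 7 of 14 were lower, -0.06 without STZ array 2-4, -0.63 without STZ array 1-3 and -0.20 without sham array 1-3. Those with the smallest p were Bloc1s4 at -0.88, Hps1 at -0.83, Hps3 at 0.38 and Hps4 at 0.21, which encode subunits of the BLOC sorting complexes. The range of these 14 genes was narrower than the 5th to 95th percentile range of all tested probes, -1.36 to 1.94.

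**Figure D3:**
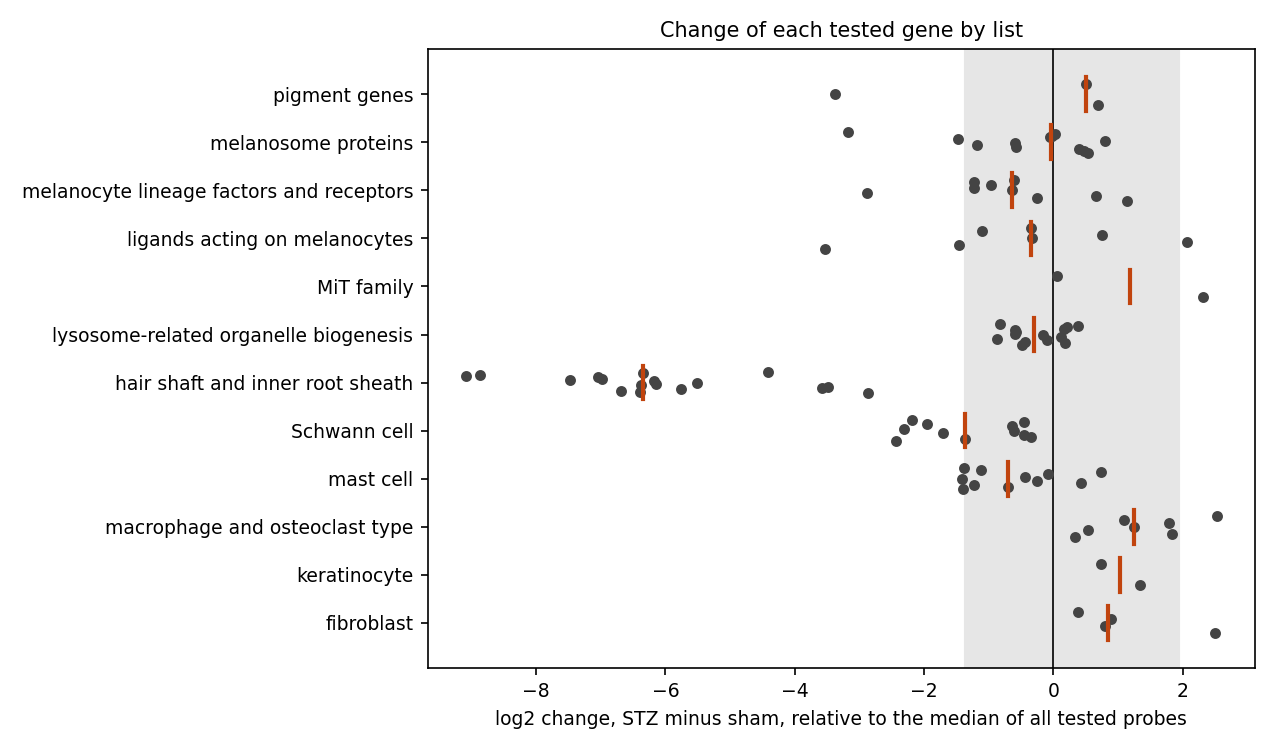
Log2 change of each tested gene, STZ minus sham and relative to the median over all tested probes (x axis), by gene list (rows), with a red bar at each list's median and a grey band for the 5th to 95th percentile range of all tested probes. Tyrp1 at -3.38 and Slc45a2 at -3.17, which was not well above background on 1 STZ array, lie left of the band, the other pigment genes lie inside it, and the hair genes run from -9.09 to -2.87.

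Hair shaft and inner root sheath genes, which mark the growing follicle where skin melanocytes of rodents are concentrated, were lower in STZ skin. Of 22 such genes 17 were tested, and all 17 were below the median of all probes, with a median change of -6.35. At an unadjusted p under 0.05 all 17 were lower, beside 3.54% of all tested probes, and none passed after adjustment. With all 4 arrays kept, limma called 5 of the hair genes after adjustment with arrays centred on the median. It called 2 with normexp and the 75th percentile, and 17 with the 8 samples taken as separate. Leaving out each array in turn moved the median change between -8.06, without STZ array 1-3, and -4.51, without STZ array 2-4. All 17 stayed below the median of all probes in each of those fits. Those fits have 1 array in a group, so their counts of passing hair genes are not given. Krt28 and Krt72, both inner root sheath keratins, had changes of -8.87 and -9.09. S100a3, a hair cuticle protein, and Msx2, a follicle transcription factor, had -5.76 and -3.49. The median hair gene had log2 values of 0.54 and -2.88 on STZ arrays 1-3 and 2-4, against 5.08 and 5.44 on the sham arrays. The summed level of the 17 genes, as log2 relative to the 75th percentile, was 6.80 and 2.97 on STZ arrays 1-3 and 2-4, against 9.95 and 10.03 on the sham arrays. Between the STZ arrays most hair genes ran in the opposite direction to Tyrp1. On the 75th percentile scale 15 of 17 were higher on STZ array 1-3, with a median gap of 2.80 and a range of -0.60 to 6.67, and relative to the median probe 16 of 17 were. Tyr too was higher on STZ array 2-4, where most hair genes were lowest, with a gap of -1.33 relative to the median probe. Mlana ran as most hair genes did, higher on STZ array 1-3, with a gap of 1.68. The part of the hair follicle in the levels of Tyrp1, Tyr and Mlana was not tested.

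Genes of Schwann cells and mast cells, which share genes with melanocytes, were also measured, and none passed after adjustment. Of 12 Schwann cell genes 11 were tested and all 11 were below the median of all probes, with a median change of -1.37. At an unadjusted p under 0.05, 4 of the 11 were lower, beside 3.54% of all tested probes. The 4 were the myelin genes Mag at -2.43, Mbp at -1.96, Prx at -1.37 and the calcium-binding protein gene S100b at -2.31, and of the 6 probes of Mbp 1 gave only -0.23. The count of 4 was 1 without sham array 2-4 and 2 with normexp and the 75th percentile, where the median was -0.80. Of 12 mast cell genes 11 were tested, 2 above and 9 below the median of all probes, none at an unadjusted p under 0.05, with a median change of -0.71. That median was -0.23 without sham array 1-3, -1.15 without sham array 2-4 and -0.43 with normexp and quantile normalization. Fcer1a at -1.42, Mcpt4 at -1.40, Kit at -1.22 and Cpa3 at -1.38 had the smallest p among them. On the same log2 scale the summed level of the Schwann cell genes was 3.11 and 3.97 on STZ arrays 1-3 and 2-4, against 4.41 and 4.51 on the sham arrays. The brightest gene in that sum was Pmp22, whose groups overlapped. Pmp22 had 2.44 and 3.42 on those STZ arrays, against 3.48 and 3.22 on sham arrays 1-3 and 2-4. The summed mast cell level was 3.82 and 4.22 on those STZ arrays, against 5.08 and 4.14 on the sham arrays, so it overlapped. In each of these lists every tested gene was well above background in at least some samples. The skin itself was represented by the keratinocyte genes Krt14 and Krt1, with changes of 0.74 and 1.33, and by the fibroblast genes Col3a1, Dcn, Pdgfra and Lum, with changes of 0.37, 0.89, 0.79 and 2.50, of which only Lum was at an unadjusted p under 0.05 (unadjusted p = 0.00888 by limma, and 0.0549 without sham array 2-4). The part of these cells in the levels of Kit and Sox10 was not tested.

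The sign of the Tyrp1 change was the same under every setting tried, whereas Tyr and Mlana each turned with the loss of 1 STZ array. Tyrp1 was smaller in size after normexp background correction, at -2.10 with the 75th percentile and -1.97 with quantile normalization. Its unadjusted p by limma was 0.0205 with arrays centred on the median, 0.0216 with quantile normalization and 0.0159 with the replicate block. With normexp and quantile normalization it was 0.0100. Adjusted p by limma in the same fits was 0.308, 0.325, 0.338 and 0.230. The unadjusted p by limma was 0.0789 with normexp and the 75th percentile, and 0.0636 with no filter on dim probes. Without sham array 1-3 the change of Tyrp1 was -3.48, and without sham array 2-4 it was -3.27. Taking the 8 samples as separate, which counts each array 2 times, gave an adjusted p of 0.0513 by limma.

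**Figure D4:**
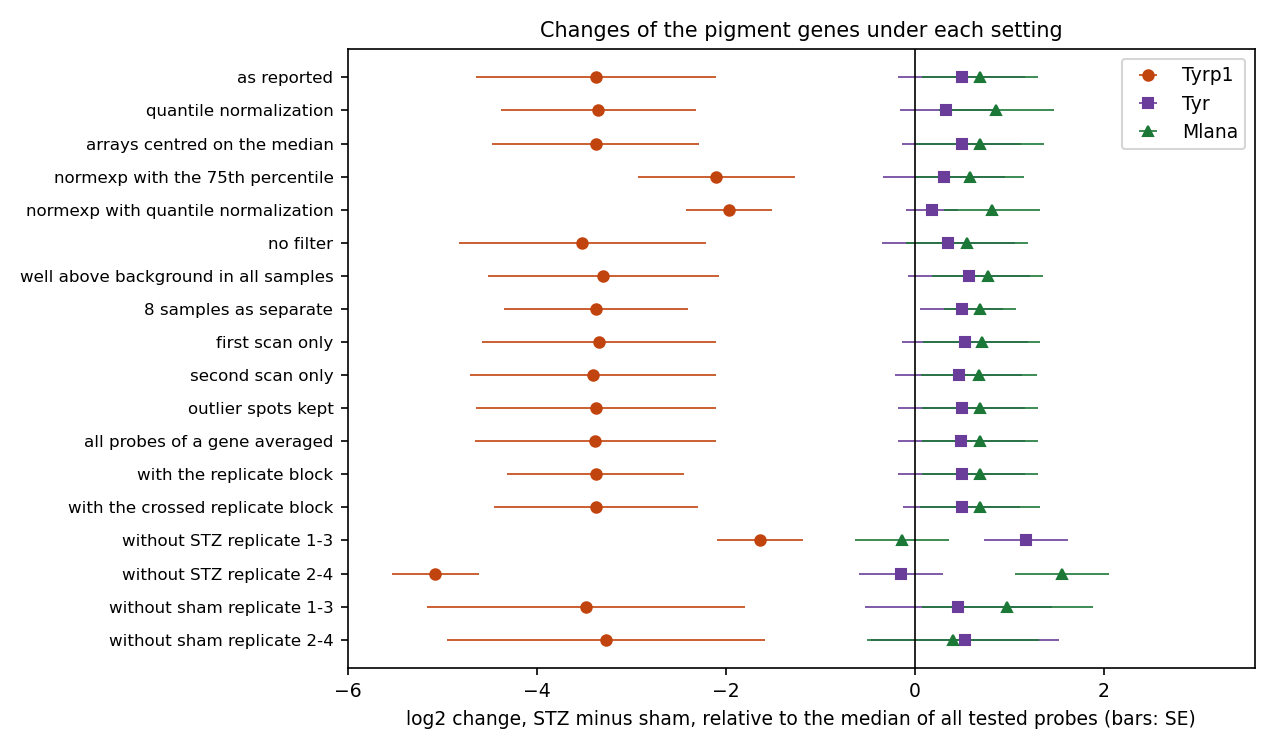
Log2 change of Tyrp1, Tyr and Mlana, STZ minus sham and relative to the median over all tested probes (x axis, bars for the SE), under each processing setting (rows). Tyrp1 stays below 0 throughout, from -5.07 to -1.64, while Tyr and Mlana lie between -0.14 and 1.56.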

How the data were processed

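Total RNA of full-thickness skin was amplified and labelled with Cy3, per the labels' protocols. Feature Extraction, Agilent's reading software, was version 11.0.1.1 per the file headers and 11.0.0.1 per the submitters' processing notes. The deposited intensities are processed signals, from which the software had taken background, and the file headers record no scaling of one array to another. For the normexp alternative, deposited median spot and background intensities were used, because the mean spot signal planned for it was not used here. Deposited flags mark spots as above background, saturated or outlying, with other values of 0 or 1, per the file headers.

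After log2, each sample was set relative to the 75th percentile of its 42136 noncontrol spots, and the spots of a probe were averaged without outliers. Scans of an array were averaged. A probe was kept if 4 or more of the 8 samples had it well above background. STZ and sham were compared by lmFit and eBayes (limma 3.58.1, R 4.3.3), two-sided, with Benjamini-Hochberg adjustment over 21527 probes. The fit was tested on simulated data. Residual degrees of freedom were 2 and prior ones 3.00, and the number of arrays limits the precision.

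Probes were named through the RefSeq gene table of GRCr8 by accession without version, which held 14274 of 15323 coding accessions. The files' own build is rn4 per their headers, so only promoter coordinates, which are GRCr8's own, are printed. Where a gene had several probes, the brightest was used. Values of other probes are given for Trpm1 and Kitlg and in part for Mbp, while the other Fgf2 probe is only described.

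Replicate numbers did not pair the arrays: deviations of same-numbered arrays correlated at -0.20. The members and gene lists were chosen with earlier results of these data known. All pigment genes, all measured melanosome proteins, lineage factors, ligands and MiT genes are named, with up to 4 genes of smallest p from each other list and the 5 genes nearest in pattern. Mitf had no probe, so its own nearest genes could not be sought.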

Additional observations from a re-analysis of the deposited data

How the results depend on the processing

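With 2 arrays a group, calls across all probes depended on the setting. Against 0 probes at an adjusted p under 0.05, limma called 124 with arrays centred on the median, 10 with normexp and the 75th percentile, and 5244 with the 8 samples taken as separate. Leaving out each array in turn gave 0 to 48 probes, the 48 without STZ array 1-3. No pigment gene passed under any setting. The median change of the pigment genes ranged from -0.14 to 0.46 when each array was left out. It reversed without STZ array 1-3 (-0.13) and without STZ array 2-4 (-0.14), which are the values of Mlana and Tyr in those fits. Mlana ranged from -0.13 to 1.56 and Tyr from -0.14 to 1.18 when each array was left out. By its construction, leaving out an array leaves 1 array in that group, whose spread is taken from the other group. The fit with the replicate block gave 0 calls, a median of 0.50 for the pigment genes and -3.38 for Tyrp1, and changed no call. A crossed replicate block, chosen after seeing the data, also gave 0 calls. At an unadjusted p under 0.05, the count of higher probes, 1575, became 929 with normexp and the 75th percentile, 5313 with 8 separate samples, 5382 without STZ array 1-3, 1028 without sham array 1-3 and 677 without sham array 2-4. The count of lower probes, 761, became 1152 with quantile normalization, 1358 with normexp and quantile normalization, 3315 with 8 separate samples, 366 without sham array 1-3 and 305 without sham array 2-4. The causes of these moves were not tested. The median change of all probes moved from setting to setting, between -0.04 and 0.38. Slide as a block was not run, because all arrays lay on 1 slide. Dim spots limit Tyrp1 on STZ array 1-3 and Slc45a2 there.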

Other observations

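The M-box letters TCATGTGCT stood in the 250 bases upstream of 55 genes, Tyrp1, Tyr and Dct among them. In skin 18 of the 55 were tested, including Tyrp1, Tyr and the melanosomal receptor gene Gpr143, whose change was 0.02. Of these 18, 10 were above and 8 below the median of all tested probes, with a median change of 0.11, beside a median of -0.11 over all 12615 tested genes. At an unadjusted p under 0.05 by limma, 5 of the 18 were higher and 2 of the 18 lower in STZ skin. Of all 12615 tested genes, 981 were higher and 564 lower at that cutoff. None passed after adjustment. The 2 lowest after Tyrp1 were Sult1d1, a sulfotransferase gene, at -2.38 and Pfkfb1, the gene of a liver-type regulator of glycolysis, at -2.32. The highest were Mmp1, a collagenase gene, at 3.39 and Igsf6, at 3.28, followed by S1pr4, a lymphocyte receptor gene, at 2.59 and C1qb, a complement gene of macrophages, at 1.75. These genes were picked for their letters after the pigment genes had been examined, and those named here were chosen after their values were seen.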
